A study of Mus musculus with 44 samples.

Results

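The genes described here are the 3 peroxisome proliferator-activated receptors (PPARs), a set of their known target genes and the enzymes of fatty acid oxidation. There were 35 members, found among the 55416 genes of the count files by matching Ensembl identifiers to gene symbols. They were followed in 44 libraries, made from 3 tissues (brain, liver and small intestine) of 15 mice. The mice were of the C57BL/6J strain and about 2 months old. Of these, 7 mice (3 females and 4 males) had received vehicle and 8 (3 females and 5 males) manganese chloride in its hydrated form, at about 50 mg per kg of body weight per day. No other allele or agent is named in the labels. Each library held the RNA of a total homogenate of 1 tissue of 1 mouse, so the replicates are separate animals, which are called by the numbers in their labels. Brain and liver had 7 vehicle and 8 manganese (Mn) libraries each, and small intestine had 7 of each. RNA was read by 3′ TagSeq, which sequences a fragment near the 3′ end of each polyadenylated transcript. Levels are in CPM, the reads of a gene scaled to a common total of reads assigned to genes, and they are not divided by gene length because a transcript gives reads near its end alone.

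PPARs are nuclear receptors that bind fatty acids and their derivatives, pair with a retinoid X receptor and raise the transcription of genes for fatty acid uptake, transport and oxidation. PPARα, encoded by Ppara, is known for the fasting response of liver; PPARδ (Ppard) acts in many tissues including gut and muscle; and PPARγ (Pparg) is best known for fat storage. Fatty acids enter the cell and are bound and activated, long chains are carried into mitochondria as carnitine esters, and 2-carbon units are removed by β-oxidation there or, for very long chains, in peroxisomes.

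Libraries held 1796385 to 3798810 assigned reads. At least 1 read was found for 34 of the 35 members in brain and for all 35 in liver and in small intestine. The summed level of hepatocyte markers was 43610 to 61630 CPM in liver, that of enterocyte markers 12720 to 19220 CPM in small intestine, and that of oligodendrocyte markers 5409 to 7694 CPM in brain, each far above their level in the other tissues. Libraries also carried some of the other tissues' profile, estimated from genes restricted to those tissues. Of the brain libraries, 7 of the 8 from Mn animals stood apart from the vehicle brains in this estimate, as described with the brain results. In liver and small intestine, the libraries of the 5 males numbered 2601 to 2630 carried 1.7% to 2.74% of the brain profile. The other libraries of these tissues carried 0.161% to 0.808%. Among those other livers the share was 0.5507% to 0.6487% in vehicle and 0.1614% to 0.2001% in Mn animals, with no overlap. Among those other small intestines it was 0.4604% to 0.7935% and 0.6719% to 0.808%, which overlapped. In liver the sample numbers in the deposited names ran from 17 to 23 for vehicle and from 25 to 32 for Mn, and in small intestine from 1 to 7 and from 9 to 15. Any difference between those runs cannot be told apart from the treatment. In homogenates, fewer cells of a type and less RNA per cell cannot be told apart either.

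Among vehicle animals the members separated the tissues. Liver exceeded brain in 32 of the 34 members tested, with none lower, and small intestine exceeded brain in 32 of 34, with none lower (edgeR quasi-likelihood test, Benjamini-Hochberg adjusted p below 0.05 over 14043 genes). Among all genes tested, 41.9% were higher in liver than in brain and 43.2% were higher in small intestine than in brain. Between liver and small intestine, 24 of 34 members were higher in liver and 6 were higher in small intestine, where 32.7% and 36.2% of all genes were. These fits used TMM factors of 0.715 to 0.803 in liver, 1 to 1.077 in small intestine and 1.25 to 1.28 in brain, which raise liver against brain. In plain CPM, Hadha was the 1 called member whose sign turned, with a lower level in liver than in small intestine, and Ppard and Acot2, which were not called, turned between liver and brain. The 35 members together made up 624 ± 23.6 CPM in vehicle brain, 12160 ± 1396 CPM in vehicle liver and 9175 ± 849 CPM in vehicle small intestine (SD, n = 7 each).

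Each receptor had its own order of tissues. Ppara stood at 232 ± 103 CPM in vehicle liver, 68.4 ± 13 CPM in small intestine and 5.41 ± 1.45 CPM in brain (SD, n = 7 each). Its log2 difference was 2.17 ± 0.20 (SE) between liver and small intestine (adjusted p = 3.96e-10) and 3.92 ± 0.27 between small intestine and brain (adjusted p = 7.29e-13). Ppard was highest in small intestine, at 167 ± 20.6 CPM, and stood at 29.8 ± 4.74 CPM in brain and 19.0 ± 3.45 CPM in liver. After TMM scaling the log2 difference between liver and brain was 0.06 ± 0.13 (adjusted p = 0.661), while that between liver and small intestine was −2.70 ± 0.12 (adjusted p = 4.49e-16). Pparg was also highest in small intestine, at 81.8 ± 24.2 CPM, followed by liver at 7.94 ± 2.36 CPM and brain at 3.24 ± 1.598 CPM, and each step passed the test.

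The binding proteins and enzymes gave each tissue its profile. Fabp1, which binds fatty acids in the cytosol of hepatocytes and enterocytes, was the most abundant member in vehicle liver at 4470 ± 657 CPM and stood at 2446 ± 327 CPM in small intestine. It was followed in liver by the mitochondrial thiolase Acaa2 (1089 ± 31.4 CPM), the peroxisomal thiolase Acaa1b (906 ± 182), the acyl-CoA synthetases Slc27a2 (867 ± 98) and Acsl1 (594 ± 88.4) and the dehydrogenase Hadh (357 ± 78.6). Fabp2, the intestinal binding protein, led in small intestine at 2726 ± 372 CPM and was 3.89 ± 0.21 log2 units higher there than in liver (liver minus small intestine −3.89, adjusted p = 2.14e-14). After Fabp2 and Fabp1 came Hadh (621 ± 97 CPM), Acaa2 (492.7 ± 54.7), Hadha (327 ± 24) and Acaa1a (242 ± 12.7). In brain the leading member was Hadha, the α subunit of the mitochondrial trifunctional protein, at 70.7 ± 5.16 CPM, and the next 5, from Acaa1a (43.5 ± 4.28 CPM) through Acadvl, Hadhb and Acaa2 to Hadh (38.3 ± 3.93), each differed from its neighbour in that order by less than the SD. The ω-hydroxylase genes Cyp4a10 and Cyp4a14 had 0 reads in all 7 vehicle brains, and the hormone gene Fgf21 had 0 reads in all 15 brains. At these depths 0 reads allow up to 0.79 to 1.59 CPM per brain library (3 reads, counting error only). Cyp4a14 had the widest gap between liver and small intestine, at 7.43 ± 0.41 log2 units (adjusted p = 6.38e-12). The size of this gap is uncertain, since vehicle intestines held 0 to 10 reads of it, with a mean of 1.10 CPM. The estimated shares of the other tissues' profile would give 0.55 to 1.69 CPM there. Bbox1, which makes the last step of carnitine synthesis, was 4.09 ± 0.16 log2 units higher in liver than in small intestine (adjusted p = 2.32e-17), and small intestine and brain differed by 0.32 ± 0.19 (adjusted p = 0.127).

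**Figure D1:**
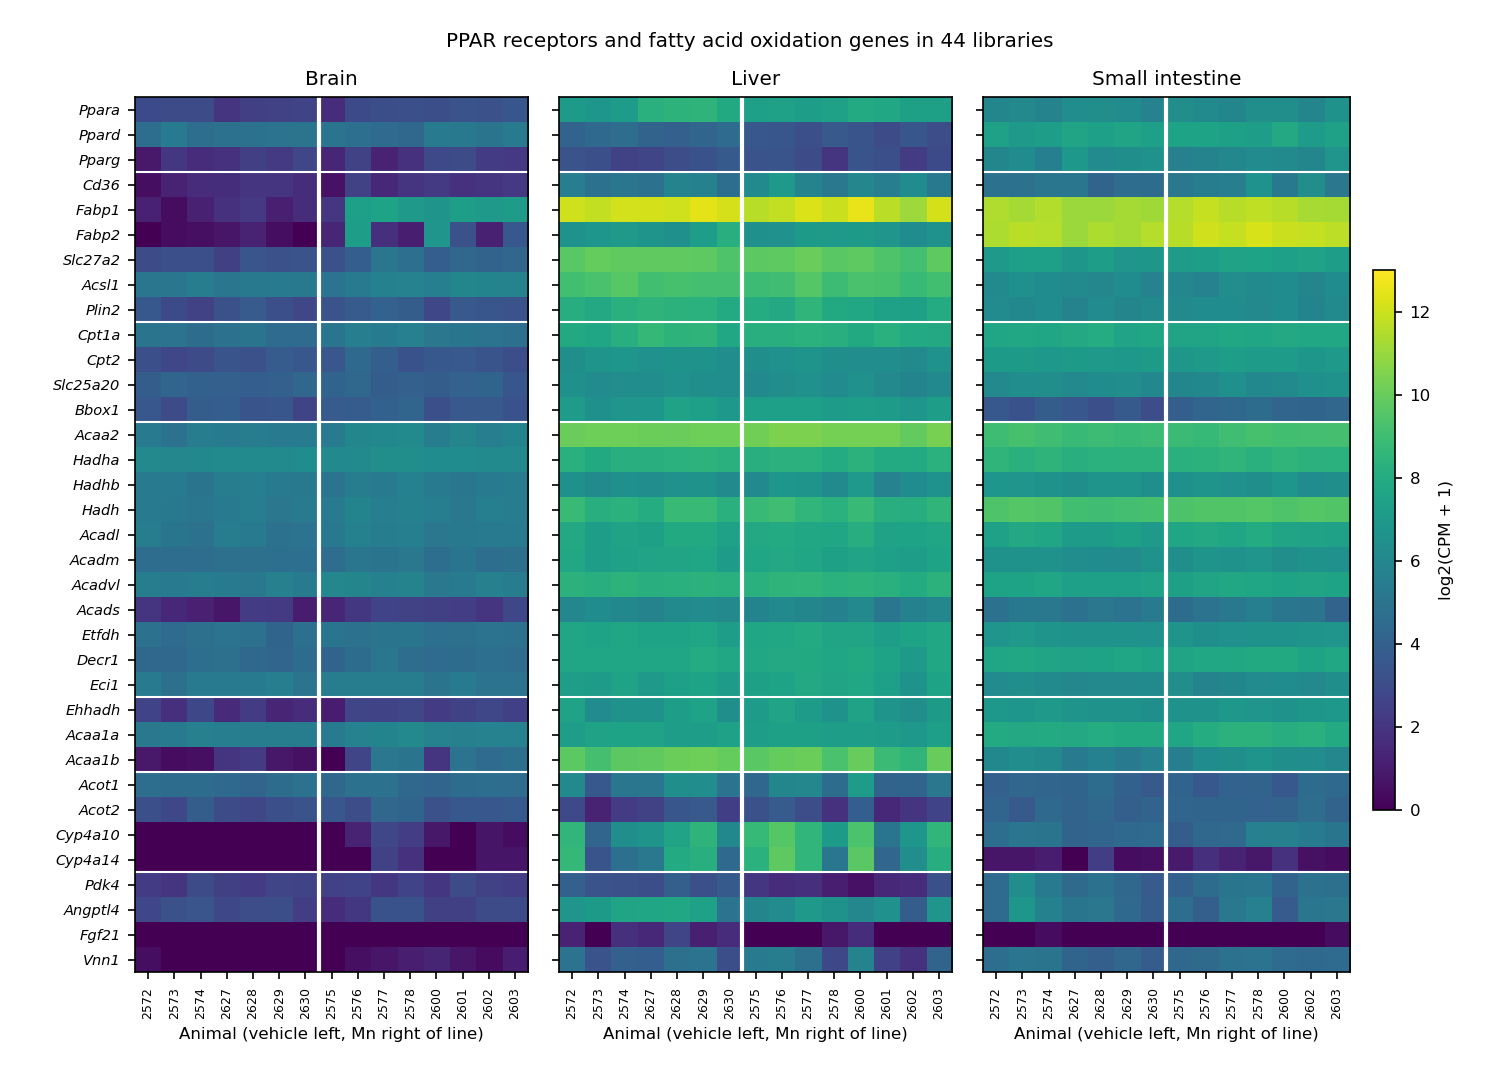
Level of the 35 members in each of the 44 libraries, as log2(CPM + 1), with genes in rows grouped by role and libraries in columns by tissue, where a white line divides vehicle from Mn animals. Brain is low for most members, and in the Mn brains a few members, Fabp1 the clearest, are raised in 7 of 8 libraries.

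4 members carry the changes in liver and small intestine that passed the test: Ppard, Pdk4, Cd36 and Bbox1. Their promoters are given for reference, since PPARs can bind near such starts. Each runs 5′ to 3′ on the gene's strand from 250 bases before the RefSeq transcription start to 50 after it, on GRCm38.p6: Ppard at chr17:28232504-28232803 (plus strand), Pdk4 at chr6:5496229-5496528 (minus), Cd36 at chr5:17835847-17836146 (minus) and Bbox1 at chr2:110305676-110305975 (minus). This build is not that of the counts, so no read position is set on it. Capitals mark matches to the nuclear receptor hexamer AGGTCA on either strand and to a tandem pair of that hexamer with 1 base between the copies (direct repeat 1), where up to 2 letters could differ.
Ppard promoter: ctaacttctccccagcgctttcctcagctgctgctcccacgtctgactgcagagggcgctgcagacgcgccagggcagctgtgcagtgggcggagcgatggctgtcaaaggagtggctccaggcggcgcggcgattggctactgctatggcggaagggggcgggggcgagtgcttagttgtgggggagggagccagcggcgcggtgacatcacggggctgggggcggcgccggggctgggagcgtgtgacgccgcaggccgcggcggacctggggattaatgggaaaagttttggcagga
Pdk4 promoter: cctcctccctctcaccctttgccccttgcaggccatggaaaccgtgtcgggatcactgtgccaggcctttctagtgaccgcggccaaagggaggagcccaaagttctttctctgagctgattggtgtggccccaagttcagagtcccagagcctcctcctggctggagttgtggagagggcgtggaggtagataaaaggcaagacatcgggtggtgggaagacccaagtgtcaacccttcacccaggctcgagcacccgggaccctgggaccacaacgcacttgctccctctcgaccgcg
Cd36 promoter: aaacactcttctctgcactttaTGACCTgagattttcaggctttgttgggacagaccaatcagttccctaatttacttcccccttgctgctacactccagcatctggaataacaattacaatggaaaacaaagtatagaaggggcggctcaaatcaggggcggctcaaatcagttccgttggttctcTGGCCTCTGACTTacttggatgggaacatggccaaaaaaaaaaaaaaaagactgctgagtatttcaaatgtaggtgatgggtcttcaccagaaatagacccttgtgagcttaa
Bbox1 promoter: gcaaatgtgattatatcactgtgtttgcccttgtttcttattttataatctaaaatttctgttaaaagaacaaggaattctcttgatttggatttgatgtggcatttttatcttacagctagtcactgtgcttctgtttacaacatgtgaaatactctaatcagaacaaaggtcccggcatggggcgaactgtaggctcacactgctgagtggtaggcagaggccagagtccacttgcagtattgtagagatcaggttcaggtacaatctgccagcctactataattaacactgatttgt

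The Cd36 promoter held the hexamer on the minus strand at 228 to 223 bases before the start (positions −228 to −223) and, at −63 to −51, a direct repeat 1 with 2 letters differing. The other 3 windows held neither, nor the E-box CACGTG, which says only that those letters are not in these windows. Among all 32851 promoters of the same length, 16.3% held the hexamer, 3.86% the direct repeat 1 and 7.15% the E-box. Promoters were at hand for 29 of the 35 members, of which 8 held the hexamer (Pparg, Cd36, Fabp1, Slc27a2, Plin2, Cpt1a, Acadm and Acadvl), 4 the direct repeat 1 (Cd36, Fabp1, Plin2 and Slc25a20) and 2 the E-box (Plin2 and Fgf21). A member was counted if any of its promoters held the motif, while the percentages count each promoter. The member counts therefore cannot be set directly against those percentages. GC content was 68.3% for Ppard, 60.7% for Pdk4, 43% for Cd36 and 39.3% for Bbox1.

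In liver, the question was which of these genes differed between Mn and vehicle animals. Ppard and Pdk4 were lower and Cd36 was higher in Mn livers (edgeR quasi-likelihood test with sex as a covariate, Benjamini-Hochberg adjusted p below 0.05 over 10536 genes). These are 2 lower and 1 higher of 34 members tested, where 0.683% of all genes tested were called lower and 0.484% higher. The median log2 change over the 34 members was 0.01, beside −0.02 over all genes tested. At an unadjusted p below 0.05 there were 9 of 34 members, where 18% of all genes were.

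Ppard (ENSMUSG00000002250.17) ranged from 15 to 24 CPM (median 17.6) in the 7 vehicle livers and from 7.003 to 11.4 CPM (median 9.85) in the 8 Mn livers. The groups did not overlap, and the highest Mn liver stood below the lowest vehicle liver. The means were 19.0 ± 3.45 and 9.29 ± 1.61 CPM, and the log2 change was −0.997 ± 0.149 (SE, adjusted p = 0.00729). It passed in each of the 15 fits that left out 1 animal. In females the means were 16.4 ± 1.32 CPM (n = 3) and 10.1 ± 0.555 CPM (n = 3), and in males 20.96 ± 3.25 CPM (n = 4) and 8.81 ± 1.91 CPM (n = 5). Small intestine holds far more Ppard than liver, so the part of liver Ppard that the estimated intestinal and brain shares would give was computed: 1.29 to 9.21 CPM in vehicle livers, the highest in animal 2630, and 0.659 to 2.45 CPM in Mn livers. Less this part, the means were 15.95 and 7.75 CPM. Enterocyte markers summed to 289 to 1224 CPM in vehicle livers and 214 to 688 CPM in Mn livers, with no marker of the 10 at 0 throughout, and Rbp2, one of them, was lower in Mn livers (−3.02 ± 0.53, adjusted p = 0.0141). With the shares as covariates the Ppard change was −0.96 (adjusted p = 0.00447), and without the livers of Mn animals 2601 and 2603 and vehicle animals 2627 and 2630 it was −0.89 (adjusted p = 0.0431).

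Pdk4 (ENSMUSG00000019577.7) encodes a kinase that blocks pyruvate dehydrogenase, which spares glucose when fatty acids are burnt, and it is a classic PPAR target. It ranged from 7.86 to 14.7 CPM (median 9.08) in vehicle livers and from 0.557 to 7.97 CPM (median 2.14) in Mn livers. Its reads were few, at 18 to 38 per vehicle liver and 1 to 17 per Mn liver. In liver libraries 3 reads stand for 1.05 to 1.67 CPM, so the lowest Mn values are near the floor. Of the Mn livers, 7 of 8 stood below every vehicle liver, and animal 2603 alone reached the lower end of the vehicle range. The means were 10.6 ± 2.98 and 2.65 ± 2.29 CPM, a log2 change of −1.95 ± 0.34 (adjusted p = 0.0141). It also passed in all 15 fits that left out 1 animal, and the change was −2.36 (adjusted p = 0.0107) without animals 2601, 2603, 2627 and 2630. DESeq2 gave neither Pdk4 nor Ppard an adjusted p in liver, since its filter on low means set both aside.

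Cd36 (ENSMUSG00000002944.16), the fatty acid translocase of the cell surface, ranged from 24.8 to 54.7 CPM (median 33.3) in vehicle livers and from 36.4 to 130.0 CPM (median 60.0) in Mn livers. The groups overlapped: 5 of 8 Mn livers lay above every vehicle liver, and the highest, animal 2576, stood well apart from the other 7. The means were 38.0 ± 12.2 and 65.1 ± 30.7 CPM, a log2 change of 0.85 ± 0.18 (adjusted p = 0.0373). Females were higher in both groups, at 50.5 ± 4.68 and 89.2 ± 35.6 CPM, against 28.7 ± 3.49 and 50.7 ± 18 CPM in males. This call was close to the threshold. It was lost in 8 of 15 fits that left out 1 animal, namely vehicle animals 2573, 2627, 2628, 2629 and 2630 and Mn animals 2576, 2577 and 2601, with adjusted p up to 0.0822, and without the sex term (0.81, adjusted p = 0.159).

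The livers of animals 2572 to 2578 and of 2600 to 2630 were also fitted apart. Within the first set the log2 change was −0.97 for Ppard (adjusted p = 0.0317), −2.36 for Pdk4 (adjusted p = 0.00188) and 0.85 for Cd36 (adjusted p = 0.0787). Within the second it was −1.05, −1.77 and 0.77, with adjusted p of 0.216, 0.265 and 0.291. Signs and sizes were thus alike in both sets, and the calls were not reached in the second.

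**Figure D2:**
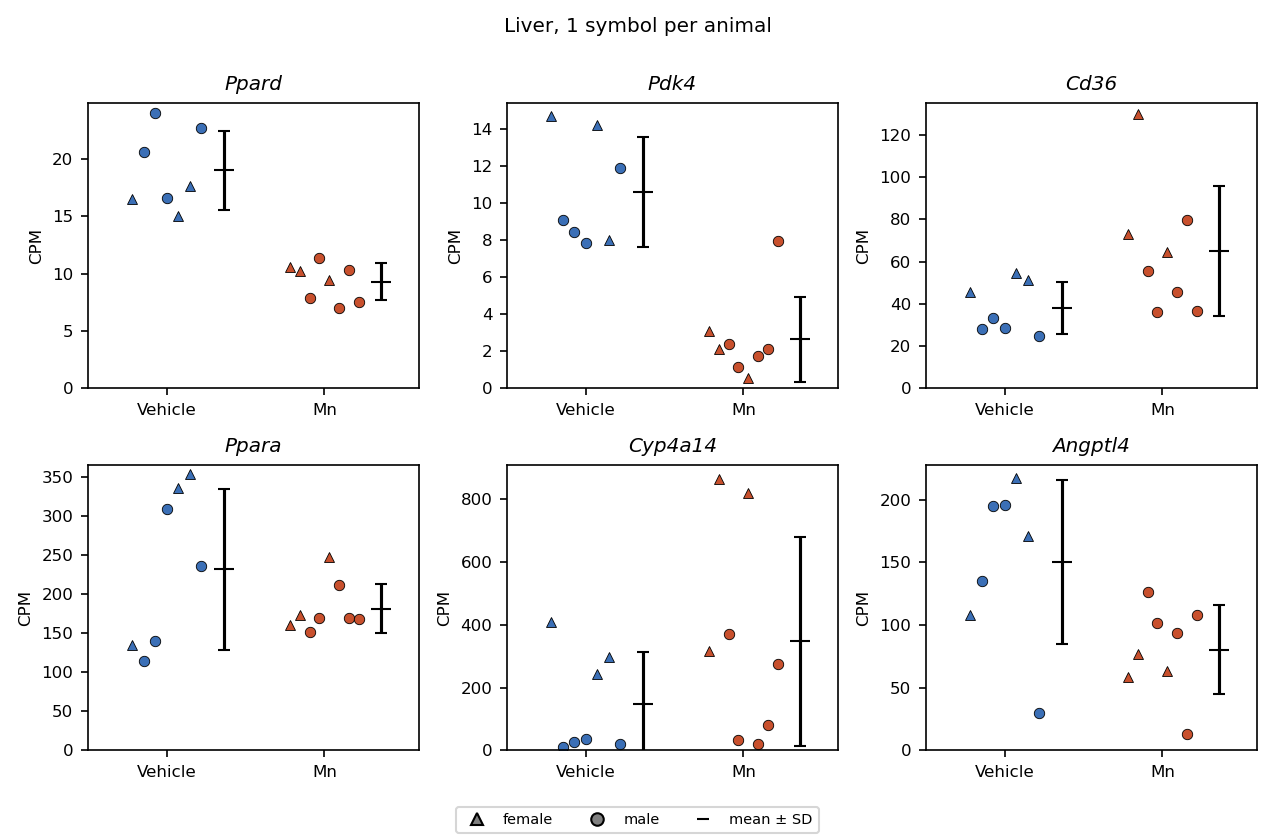
CPM of Ppard, Pdk4, Cd36, Ppara, Cyp4a14 and Angptl4 in each liver, with vehicle and Mn side by side, triangles for females and circles for males, and the mean with its SD (the part of the Cyp4a14 bar below 0 is not drawn). Ppard does not overlap between the groups, Pdk4 overlaps through 1 Mn liver, and the ranges of the other 4 genes overlap.

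The other 2 receptors did not pass the test in liver. Ppara had a log2 change of −0.29 ± 0.20 (adjusted p = 0.471), and its vehicle livers fell into separate ranges: 114 to 140 CPM in animals 2572 to 2574 and 236 to 353 CPM in animals 2627 to 2630. Mn livers ranged from 152 to 248 CPM, all above the first range. Mn animal 2600 alone, at 248 CPM, reached into the second range, and the other Mn livers lay below it. Within animals 2572 to 2578 the Ppara change was 0.35 (adjusted p = 0.142), and within 2600 to 2630 it was −0.50 (adjusted p = 0.226), so the sign depends on the set of animals. Pparg had 7.94 ± 2.36 CPM in vehicle and 7.06 ± 2.47 CPM in Mn livers (−0.11 ± 0.23, adjusted p = 0.835).

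The ω-hydroxylases had the largest positive changes among the liver members without passing the test. Cyp4a14 and Cyp4a10 hydroxylate the far end of fatty acids and are standard readouts of PPARα in mouse liver. Cyp4a14 ranged from 9.56 to 409 CPM (median 36.2) in vehicle and from 18.9 to 865 CPM (median 296) in Mn livers. The ranges overlapped widely, with 2 of 8 Mn livers above every vehicle liver, and the log2 change was 1.97 ± 0.54 (adjusted p = 0.0729). It was called in 3 of 27 alternatives: by DESeq2, with no filter on low counts and in the fit of all 44 libraries. Cyp4a10 had a change of 1.35 ± 0.41 (adjusted p = 0.100), with a range of 18.2 to 372 CPM in vehicle and 32.6 to 751 CPM in Mn livers. Much of this spread followed sex. In vehicle livers Cyp4a14 was 243 to 409 CPM in the 3 females and 9.56 to 36.2 CPM in the 4 males, with no overlap. In Mn livers it was 317 to 865 CPM in females and 18.9 to 371 CPM in males, which overlapped.

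Across livers, several members followed Cyp4a14. With all 15 livers, and log2(CPM + 1) values, Pearson's r with Cyp4a14 was 0.96 for Cyp4a10 (Spearman's rho 0.95), 0.92 for the peroxisomal bifunctional enzyme Ehhadh (rho 0.84), 0.80 for the pantetheinase Vnn1 (rho 0.86) and 0.76 for the thioesterase Acot1 (rho 0.71). By permutation test with adjustment over the 9 genes compared, these 4 passed, with adjusted p of 9e-05, 0.000135, 0.00141 and 0.00365 for r. Without the 2 livers farthest from the median of Cyp4a14, r was 0.97, 0.91, 0.78 and 0.65 in the same order, and Acot1 no longer passed by rho (0.56, adjusted p = 0.111). Nor did it pass by rho within the 7 vehicle livers (exact permutation test, adjusted p = 0.0536) or by r within the 8 Mn livers (exact permutation test, adjusted p = 0.0552), where the other 3 genes passed by both measures. Since sex sets much of the level, r was also taken within each sex, by exact permutation test. Within the 9 males, r was 0.93 for Cyp4a10 (adjusted p = 0.00129) and rho was 0.93 (adjusted p = 0.00675), while Ehhadh had r of 0.84 (adjusted p = 0.0351) and rho of 0.58 (adjusted p = 0.324). Vnn1 and Acot1 did not pass in males, with r of 0.47 (adjusted p = 0.46) and 0.71 (adjusted p = 0.0995). Within the 6 females Cyp4a10 had r of 0.91 (adjusted p = 0.0625) and rho of 0.94 (adjusted p = 0.100). Nor did the other 3 genes pass in females. There r was 0.59 for Ehhadh (adjusted p = 0.288), 0.80 for Vnn1 (adjusted p = 0.167) and 0.32 for Acot1 (adjusted p = 0.575, rho −0.20). Pdk4, in contrast, had r of −0.20 with Cyp4a14 over all livers (adjusted p = 0.711) and Angptl4 had −0.01 (adjusted p = 0.987).

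Uptake, activation and storage genes other than Cd36 had small changes in liver. Fabp1 was at 4470 ± 657 CPM in vehicle livers and 4000.0 ± 1246 CPM in Mn livers (−0.13 ± 0.16, adjusted p = 0.702). Slc27a2 and Acsl1, which activate fatty acids to acyl-CoA, had changes of −0.04 (adjusted p = 0.886) and −0.07 (adjusted p = 0.767). Plin2, which coats lipid droplets, had −0.26 (adjusted p = 0.363). In the carnitine shuttle, Cpt1a, its rate-limiting entry enzyme, had −0.05 (adjusted p = 0.878), and Cpt2, which returns acyl groups to CoA inside the mitochondrion, had −0.12 (adjusted p = 0.524). Bbox1 had 0.25 ± 0.09 (adjusted p = 0.163).

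Of the 11 mitochondrial β-oxidation genes, 10 had a positive log2 change in liver. The median of the 11 was 0.12, beside −0.02 over all genes tested. None passed the test, with adjusted p from 0.138 for the long-chain dehydrogenase Acadl to 0.996 for the auxiliary reductase Decr1. The matrix thiolase Acaa2 was at 1089 ± 31.4 CPM in vehicle livers and 1233 ± 140 CPM in Mn livers, above every vehicle liver in 7 of 8 and below every one in the eighth (0.21 ± 0.08, adjusted p = 0.189). The short-chain dehydrogenase Acads was the member with a negative sign (−0.24, adjusted p = 0.312). In peroxisomal β-oxidation, Ehhadh, Acaa1a and Acaa1b had changes of 0.19, −0.10 and −0.15. The 3′ ends of the thiolase genes Acaa1a and Acaa1b are 98.4% identical over 368 bases, and that of Hadhb is 99.1% identical over 346 bases to that of the locus Gm13910. Reads that fit several places were not counted, so the levels of these 3 genes are uncertain. Angptl4, an inhibitor of lipoprotein lipase, stood at 150 ± 65.2 and 80.3 ± 35.4 CPM (−0.89 ± 0.36, adjusted p = 0.210). Fgf21 was too low to be tested, with 0 reads in 6 of 8 Mn livers and 1 of 7 vehicle livers and at most 5.62 CPM in any.

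In small intestine, Bbox1 and Cd36 were higher in Mn animals, 2 of 33 members tested, where 0.34% of the 11770 genes tested were called higher. The median log2 change over the 33 members was 0.11, beside −0.01 over all genes tested, and 24 of 33 had a positive sign. An unadjusted p below 0.05 was reached by 9 of 33 members and by 12.2% of all genes.

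Bbox1 (ENSMUSG00000041660.9) ranged from 7.35 to 13.2 CPM (median 10.6) in the 7 vehicle intestines and from 14.1 to 22.9 CPM (median 18.2) in the 7 Mn intestines. The groups did not overlap. The means were 10.1 ± 2.17 and 18.3 ± 2.66 CPM, a log2 change of 0.87 ± 0.16 (adjusted p = 0.0182). Its level is low, at 16 to 59 reads per library. Liver and brain RNA together would give 0.666 to 1.56 CPM of it at the estimated shares, alike in both groups. The call was lost without Mn animal 2576 or 2578, with adjusted p up to 0.0566, and DESeq2 gave no adjusted p.

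Cd36 ranged from 17.1 to 33.8 CPM (median 27.8) in vehicle and from 34.6 to 97.05 CPM (median 45.1) in Mn intestines. All 7 Mn intestines lay above every vehicle intestine, though by a small margin at the low end, and animals 2578 and 2602 were the highest. The means were 26.7 ± 5.97 and 54.2 ± 25.8 CPM, a log2 change of 1.02 ± 0.21 (adjusted p = 0.0337). Cd36 was thus called higher in both liver and small intestine, in tissues of the same animals. The intestinal call was lost in 8 of 14 fits that left out 1 animal, namely Mn animals 2576, 2578, 2600 and 2602 and vehicle animals 2627, 2628, 2629 and 2630, with adjusted p up to 0.0933.

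Within animals 2572 to 2578 alone the changes were 0.81 for Bbox1 (adjusted p = 0.234) and 0.98 for Cd36 (adjusted p = 0.158). Within 2600 to 2630 they were 0.97 (adjusted p = 0.0468) and 1.03 (adjusted p = 0.0965). The vehicle intestine of animal 2627 held pancreatic RNA, with acinar markers summing to 7772 CPM against at most 88.9 CPM in Mn intestines. Without it Bbox1 had 0.87 (adjusted p = 0.0308) and Cd36 1.03 (adjusted p = 0.0553). Adipocyte markers, of a cell type that also expresses Cd36, summed to 1.13 to 52.7 CPM in vehicle and 0 to 0.982 CPM in Mn intestines. None of the 5 had enough reads to be tested, 1 of them had 0 reads in all Mn intestines, and their part in the Cd36 difference was not tested.

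**Figure D3:**
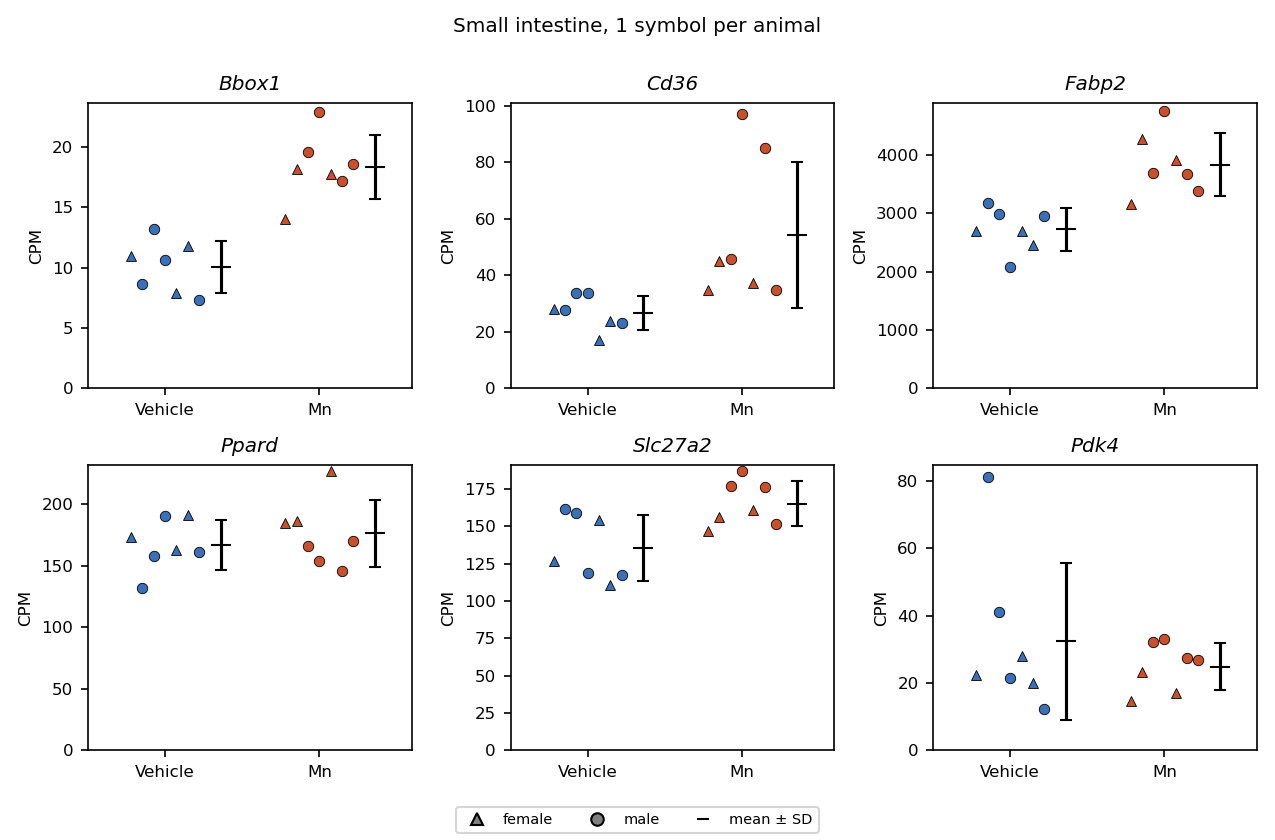
CPM of Bbox1, Cd36, Fabp2, Ppard, Slc27a2 and Pdk4 in each small intestine, vehicle and Mn side by side, with triangles for females, circles for males and the mean with its SD. Bbox1 and Cd36 do not overlap between the groups, while Ppard and Pdk4 do.

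Other intestinal members came near the threshold or stayed far from it. Fabp2 ranged from 2077 to 3180 CPM (median 2707) in vehicle and from 3164 to 4764 CPM (median 3697) in Mn intestines, with 6 of 7 Mn intestines above every vehicle one. Its log2 change was 0.53 ± 0.12 (adjusted p = 0.0548), and DESeq2 called it (adjusted p = 0.00132). All 10 enterocyte markers tested also had a positive sign (median 0.21), and their sum was 12720 to 16430 CPM in vehicle and 14580 to 19220 CPM in Mn intestines; their part in the Fabp2 difference was not tested. Fabp1 had 0.35 (adjusted p = 0.209) and Slc27a2 0.32 (adjusted p = 0.167). Ppara, Ppard and Pparg had changes of 0.24 (adjusted p = 0.418), 0.11 (adjusted p = 0.658) and −0.20 (adjusted p = 0.685). Pdk4 stood at 32.4 ± 23.3 and 24.9 ± 7.07 CPM (−0.36 ± 0.28, adjusted p = 0.665), with a vehicle range of 12.4 to 81.2 CPM that enclosed every Mn value.

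The 35 members summed to 11190 ± 1049 CPM in Mn intestines and 9175 ± 849 CPM in vehicle ones, a difference carried in large part by Fabp1 and Fabp2. In liver the sums were 11880 ± 2635 CPM in Mn and 12160 ± 1396 CPM in vehicle animals.

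In brain, Fabp1, Acaa1b and Slc27a2 were higher in Mn animals, 3 of 27 members tested, where 0.559% of the 12872 genes tested were called higher. Fabp1 and Acaa1b passed the filter on low counts through the Mn libraries. Each vehicle brain held just 1 to 7 reads of Fabp1 and 1 to 8 reads of Acaa1b. Of the 27 members, 24 had a positive sign, and the median log2 change was 0.27, beside −0.01 over all genes tested. An unadjusted p below 0.05 was reached by 10 of 27 members and by 8.25% of all genes. These increases moved with the share of liver or intestinal profile in the libraries. Vehicle brains and the brain of Mn animal 2575 held at most 0.119% of the liver profile and at most 0.0598% of the intestinal profile. Mn animals 2577, 2578, 2601, 2602 and 2603 held 2.08% to 3.16% of the liver profile, and Mn animals 2576 and 2600 held 5.14% and 2.59% of the intestinal profile. Hepatocyte markers summed to 11.1 to 111 CPM in vehicle and 21.2 to 2612 CPM in Mn brains. Of the 7 tested, 6 were called higher. Markers this low in vehicle brains can pass the filter on low counts through the Mn libraries, so this count adds nothing to the summed levels. Enterocyte markers summed to 80.4 to 98.6 CPM in vehicle and 93.3 to 882 CPM in Mn brains. No marker of either list was at 0 throughout a group. The sample numbers in the deposited names were 97 to 103 for vehicle brains and 104 for Mn animal 2575, while the other 7 Mn brains carried 8, 16, 24, 88 and 94 to 96; the part of this was not tested.

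Fabp1 (ENSMUSG00000054422.8) was 0.359 to 3.45 CPM (median 1.28) in vehicle brains. In Mn brains it was 3.19 CPM in animal 2575 and 104 to 183 CPM in the other 7, with nothing between. The log2 change was 6.13 ± 0.59 (adjusted p = 6.28e-05). At the estimated shares, the mean vehicle levels of liver and intestine would give 70.7 to 144 CPM in those 7 libraries, and the observed values were 1.14 to 1.48 times that (median 1.31). Slc27a2 ranged from 4.53 to 9.86 CPM (median 8.09) in vehicle brains and from 8.497 to 33.2 CPM (median 17.6) in Mn brains, with 7 of 8 above every vehicle brain (1.201 ± 0.230, adjusted p = 0.0158). The highest values were in animals 2577 and 2578. Acaa1b, a peroxisomal thiolase abundant in liver, ranged from 0.359 to 3.94 CPM (median 0.805) in vehicle brains and from 0 to 34.6 CPM (median 24.6) in Mn brains (3.53 ± 0.54, adjusted p = 0.00155). It was 22.7 to 34.6 CPM in the 5 brains with the liver profile, and 5.63 and 2.90 CPM in the 2 with the intestinal profile. Fabp2 showed the opposite split, at 152 and 110 CPM in animals 2576 and 2600 and 1.105 to 10.7 CPM in the 5 with the liver profile.

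Observed over predicted levels were 0.975 to 1.595 for Acaa1b (median 1.21), 0.928 to 2.79 for Slc27a2 (median 1.21) and 0.275 to 1.55 for Fabp2 (median 0.608) in the 7 libraries. Without those 7 libraries, which leaves 1 Mn brain that is assumed to vary like the vehicle brains, edgeR called 0 members, with 2 of 26 and 10.6% of all genes at an unadjusted p below 0.05, and Slc27a2 had a change of 0.03 (adjusted p = 0.985). With the shares as covariates edgeR called 0 members, with 2 of 27 and 3.34% of all genes at an unadjusted p below 0.05. The changes were then 3.77 for Fabp1 (adjusted p = 0.791), 1.07 for Acaa1b and 0.13 for Slc27a2. After the predicted reads were subtracted, Fabp1 was the 1 member still called (5.85, adjusted p = 6.03e-05) and Slc27a2 had −0.83. Acaa1b then had too few reads to be tested. Ppard, which brain expresses at 29.8 ± 4.74 CPM in vehicle animals and 30.5 ± 7.57 CPM in Mn animals, had a change of 0.03 ± 0.15 (adjusted p = 0.991). Ppara had 0.46 ± 0.23 (adjusted p = 0.637), and Pparg, at 3.24 ± 1.598 and 3.88 ± 2.07 CPM, was too low to be tested. Acsl1 (0.43 ± 0.10, adjusted p = 0.0885) and Acaa2 (0.50 ± 0.13, adjusted p = 0.124) came next by p.

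**Figure D4:**
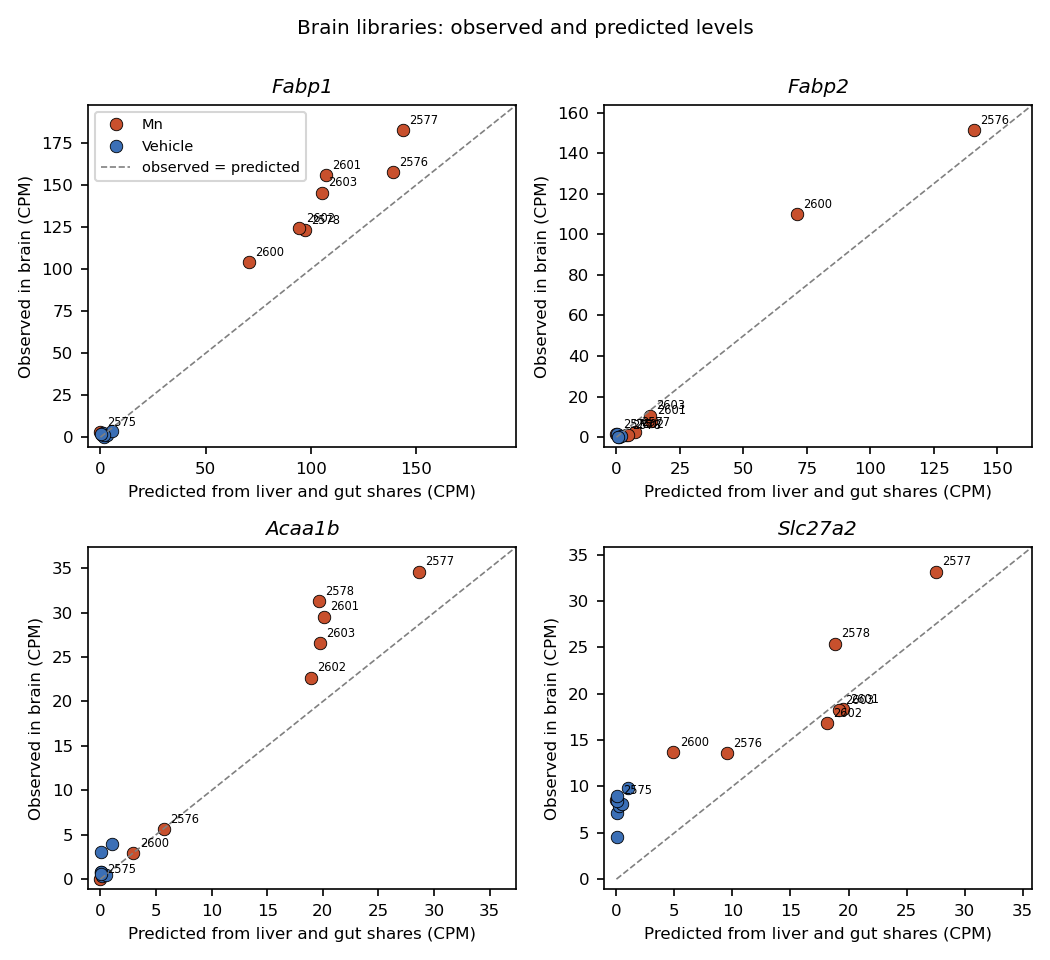
Observed CPM of Fabp1, Fabp2, Acaa1b and Slc27a2 in each brain against the CPM predicted from the library's estimated shares of liver and intestinal profile, with a dashed line where both are equal. The vehicle brains and Mn animal 2575 lie near 0 predicted CPM, and the other 7 Mn brains lie at 70.7 to 144 predicted CPM for Fabp1 and slightly above the line.

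The Mn effects were compared between tissues in 1 fit of all 44 libraries. The Mn effect on Ppard was lower in liver than in small intestine by 1.083 ± 0.1995 log2 units (difference −1.083, adjusted p = 0.014), 1 of 34 members, where 0.0601% of the 14984 genes tested were called in this direction. With the animal as a replicate block, the difference was −1.075 (adjusted p = 0.0341). It was lost without animal 2576 (adjusted p = 0.0685). Pdk4 had a difference of −1.58 ± 0.45 (adjusted p = 0.138) and Bbox1 −0.59 ± 0.21 (adjusted p = 0.290), so these were not shown to differ between the tissues.

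Brain minus liver, 6 members had a higher Mn effect in brain (Fabp1, Fabp2, Acaa1b, Slc27a2, Ppard and Pdk4), where 5.21% of all genes did, and the median over all genes was 0.12. For Ppard the difference was 1.06 ± 0.21 (adjusted p = 0.000506) and for Pdk4 1.92 ± 0.54 (adjusted p = 0.0208), where brain itself had changes of 0.03 and −0.05. Brain minus small intestine, 4 members did (Fabp1, Fabp2, Acaa1b and Slc27a2), where 3.73% of all genes did. Without the 7 brain libraries named above, edgeR called 0 members in both comparisons, with 2 and 0 of 35 at an unadjusted p below 0.05, where 4.58% and 4.43% of all genes were. The comparisons share libraries, so their values are not independent of each other.

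The Mn effect was also compared between males and females. No member passed in brain, liver or small intestine, where 0.0657%, 0.035% and 0% of all genes did by edgeR. In counts simulated with known differences, this test recovered 2.9%, 4.5% and 2.8% of 1.5-fold differences in these tissues. It recovered 38.5%, 35.6% and 25% of 2-fold differences, so the lack of calls does not show that the sexes were alike. At an unadjusted p below 0.05 there were 6 of 30 members in brain, 2 of 34 in liver and 0 of 33 in small intestine, where 6.06%, 6.09% and 2.7% of all genes were, and DESeq2 called 1 (Acaa1b), 0 and 0. For Ppard in liver the male minus female difference was −0.59 ± 0.28 (adjusted p = 0.821). For Cyp4a14 in liver it was 1.64 ± 1.01 (adjusted p = 0.922). In brain the Acaa1b difference of 3.89 ± 1.10 (adjusted p = 0.318) stood beside a split of the shares: the 5 brains with the liver profile were from males and the 2 with the intestinal profile from females.

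Some neighbouring pathway genes were also called. Among all genes tested, 0.484% were called higher and 0.683% lower in liver. The share called higher was 0.34% in small intestine and 0.559% in brain. Of the 18 further peroxisomal genes listed, 16 could be tested in liver and 15 in small intestine, and the carnitine acetyltransferase Crat was the 1 called: it was at 91.2 ± 8.99 CPM in vehicle intestines and 118 ± 7.54 CPM in Mn intestines (0.41 ± 0.09, adjusted p = 0.0362). Of 18 lipid synthesis genes, 17 could be tested in liver and Mlxipl, the glucose-sensing factor ChREBP, was the 1 called (246 ± 60.6 and 163 ± 35.3 CPM, −0.55 ± 0.11, adjusted p = 0.0218). Of 8 fasting genes of liver, the gluconeogenic enzyme gene Fbp1 was higher (0.35 ± 0.08, adjusted p = 0.0472). Of 14 clock genes, Arntl was lower in small intestine (−0.65 ± 0.12, adjusted p = 0.0254). In brain, the liver and gut factor Creb3l3 (3.44), Pck1 (5.17) and Fbp1 (4.33) were higher, in the same libraries that carried the liver or intestinal profile. Genes low in vehicle brains can pass the filter on low counts through those libraries. The median log2 change in liver was 0.10 for the further peroxisomal genes, 0.19 for 15 further mitochondrial genes, −0.07 for 14 PPAR partners and −0.14 for 24 other PPAR targets. In small intestine the medians were 0.17, 0.09, −0.01 and 0.04, over 15, 16, 13 and 21 genes.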

How the data were processed

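RNA of 44 homogenates was read by 3′ TagSeq with single-end reads. The values are raw read counts per gene, deposited by the authors in a file for each library. STAR 2.7.10b, HTSeq 0.2.0, FastQC 0.12.0, DESeq2 1.12.3, R 4.2.2 and the GRCm39 assembly are named, per the submitters' processing notes. The use of molecular identifiers and of strand in counting was not given in the sources used here. Intervals and floors cover counting error only. Summary and spike-in entries (5 and 92, the latter with 4 reads in all) stayed out of library sizes and tests. Symbols were matched by Ensembl identifier, 52083 of 55416.

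Each tissue was fitted in edgeR 4.0.16 (under R 4.3.3) with TMM scaling and a term for sex, after filterByExpr had removed low genes (count 10, total 15). Quasi-likelihood tests were two-sided with Benjamini-Hochberg adjustment over all genes tested. The SE is the log2 change divided by the square root of F. Tissues were compared in joint fits. Named with values were the 3 receptors, every called member, the 5 members with the smallest p and up to 6 with the highest vehicle level per tissue, those listed at 0, and up to 4 called genes per pathway list. Other members were named after their values were seen. Some results on the pathway lists are not reported here. Alternatives were DESeq2 1.42.0, DESeq2-type size factors, no filter, no sex term, subsets of animals and libraries, and the profile shares. The shares of other tissues' profile were estimated from marker genes (source level of 100 CPM or more, lowest target library at or below 0.5% of it). The fits without the males of animals 2600 to 2630 and with shares as covariates in liver, the tissue comparisons without the 7 brain libraries and the correlations within a sex were chosen after seeing the data. The scripts were tested on simulated data. The same animals gave all tissues, so animal numbers pair libraries across tissues. Deviations from the group means correlated between tissues of an animal with medians of 0.104 between brain and liver, 0.042 between brain and small intestine and 0.115 between liver and small intestine, over 6931 genes. Promoters are RefSeq sequences on GRCm38.p6. The members and lists were chosen with earlier results of these data known.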

Additional observations from a re-analysis of the deposited data

Results flagged for a closer look

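In groups of 7 or 8 libraries, 1 library stood far from the others in 5 cases among 44 groups examined, and chance gives about 1 in 20 groups. Pdk4 was 7.97 CPM in the liver of Mn animal 2603, against at most 3.12 CPM in the other Mn livers. Cd36 was 130.0 CPM in the liver of Mn animal 2576. In brain, Mn animal 2575 was low for Fabp1 (3.19 CPM) and for Ppara (2.12 CPM), and it is the 1 Mn brain without a raised share of liver or intestinal profile. Acaa2 was low in the brain of vehicle animal 2573, at 27.6 CPM.

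The Mn effect of several members differed between tissues by the test of the difference. For Ppard it was −1.08 log2 units, liver minus small intestine, and 1.06, brain minus liver. Pdk4 had 1.92, brain minus liver. Fabp1 had 6.26 against liver and 5.81 against small intestine, Fabp2 6.43 and 5.62, Acaa1b 3.67 and 3.09, and Slc27a2 1.26 and 0.92, all with the larger effect in brain. For Fabp1 and Slc27a2 the brain libraries with a raised share of liver or intestinal profile are the high ones. Acaa1b was highest in those with the liver profile, and Fabp2 in those with the intestinal profile.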

How the results depend on the processing

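Counts of members called in brain (3) were 7 with DESeq2 and with no filter, 5 in 1 fit of all 44 libraries and within animals 2600 to 2630, 6 in males and 1 after subtraction. They were 0 in females and with shares as covariates (1 and 2 at an unadjusted p below 0.05, with 2.7% and 3.34% of all genes). Leaving out 1 animal gave 1 to 5, with 1 without Mn animal 2576, 2577, 2578, 2601, 2602 or 2603. Of these 15 fits, 8 tested Fabp1 and 9 tested Acaa1b, and each was called in all that tested it. In the other fits of this kind they had too few reads to be tested. The same held in females and without the 7 Mn libraries with raised shares. In liver (3) DESeq2 also gave 3, of which Cd36 was shared and Acadl and Cyp4a14 were not, and the other counts that moved were 7 with no filter, 1 in males, and 0 in females and within animals 2600 to 2630 (8 and 6 at an unadjusted p below 0.05, with 8.44% and 12.5% of all genes). In small intestine (2) they were 8 with no filter, 4 within animals 2600 to 2630, 1 without the sex term and without the males of animals 2600 to 2630, and 0 within animals 2572 to 2578, in females and in males (8, 5 and 6 unadjusted, with 9.1%, 6.03% and 8.22% of all genes); leaving out 1 animal gave 0 to 3, with 0 without Mn animal 2576 or 2578 and 1 without Mn animal 2600 or 2602 or vehicle animal 2627, 2628, 2629 or 2630. The sex comparison gave 1 in brain with DESeq2 and 1 in liver with no filter. Liver minus small intestine (1) gave 2 with no filter and 0 to 2 leaving out 1 animal. Brain minus liver and brain minus small intestine gave 0 without the 7 brain libraries. The correlation with Cyp4a14 passed by both r and rho for 4 genes over all livers, for 3 within vehicle livers, within Mn livers and without the 2 farthest livers, for 0 in females and for 1 in males. With the replicate block (the animal), counts were 1 for liver minus small intestine, 8 for brain minus liver and 4 for brain minus small intestine, and no call named in the report was lost. The share of all genes called at the adjusted threshold in these other settings is not given beside the counts. A higher count therefore does not show a stronger response of the members.

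Signs turned for uncalled or brain values. In brain, Slc27a2 was −0.83 after subtraction; Acsl1 −0.24 without the 7 libraries; Acaa2 −0.076, −0.157 and −0.085 without them, after subtraction and with shares; Ppara −1.295, −0.629 and −0.214 in that order and −0.059 within animals 2572 to 2578; Ppard −0.32 within animals 2572 to 2578, −0.059 in males, −0.033 after subtraction and −0.036 to 0.125 leaving out 1 animal. In liver, Ppara was 0.35 within animals 2572 to 2578, and Pparg 0.18 in females, 0.023 without the males of animals 2600 to 2630, 0.13 with shares and −0.19 to 0.048 leaving out 1 animal. Intestinal Pparg was 0.008 within animals 2572 to 2578. Without the 7 brain libraries Acaa1b was −4.62 (brain minus liver) and −5.21 (brain minus small intestine), and Slc27a2 −0.32 (brain minus small intestine). The cause was not tested. Depth kept 8 members in brain, 1 in liver and 2 in small intestine out of the tests, and the subsets by sex or animal number hold 6 to 9 animals.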
